A study of Homo sapiens with 12 samples.

Results

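HOX genes encode homeodomain transcription factors, and 38 of them, all members of the HOXA, HOXB, HOXC and HOXD clusters, were followed through a human stem cell differentiation course. They were taken from the 36601 genes of the deposited count table by a list of symbols matched to Ensembl identifiers, and all 38 were found. No cut on measured values was used, but the list was chosen with earlier results of these data known. The list held 10 HOXA, 10 HOXB, 9 HOXC and 9 HOXD genes.

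In vertebrates the genes of a cluster lie in the order of their paralogue numbers, and in the embryo low-numbered genes are switched on earlier and nearer the head than high-numbered ones. HOX proteins bind DNA together with cofactors of the TALE class (PBX, MEIS and PKNOX proteins), Polycomb proteins keep silent clusters shut, and trithorax and MLL proteins keep active ones open. In blood formation, HOXA9, HOXA10, HOXB4 and other cluster genes are known for their activity in stem and progenitor cells, and mesenchymal cells carry HOX codes that mark the body level they come from.

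The cells were wild-type H9, an established human embryonic stem cell line kept on mouse embryonic fibroblast feeders, and bulk RNA was sequenced at days 10, 15, 20 and 25 of a cytokine protocol directed at γδ T cells. Every group shared the first steps of that protocol: CHIR99021 at 3 µM with BMP4 at 10 ng/mL and Activin A at 2 ng/mL from day 0, VEGF from day 2, bFGF from day 3 and SB431542 at 4 µM from day 6. The Notch ligand DLL4 was given at 10 ng/mL from day 10 onward with the cytokines SCF, IL-7 and Flt3L. The labels name day 10 haematopoietic progenitors, days 15 and 20 T progenitors and day 25 mature γδ T cells, with 3 libraries a day and a single batch label for all 12. The day 25 label was not borne out by the CD3 genes. CD3D and CD3G had 0 counts in all 3 libraries of day 25, which allows up to 0.0723 to 0.096 CPM in a library. CD3E averaged 0.168 ± 0.105 CPM (SD, n = 3). Other T-lineage markers went both ways between days 10 and 25. TRGC1 went from 1.69 ± 0.148 to 10 ± 0.872 CPM and TCF7 from 4.5 ± 0.428 to 6.67 ± 1.43 CPM. CD7 went from 18.4 ± 1.83 to 2.21 ± 0.169 CPM. Groups are therefore called by their day. Nothing in the labels states that the libraries of a day came from separate cultures, so each p-value is relative to a spread that may be technical.

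Each library held between 27026196 and 39811230 counts, of which the HOX genes together took 1153 to 7478, or 0.00414% to 0.025%. Levels are CPM, counts relative to the library total after TMM scaling, given as mean ± SD over the 3 libraries of a day. Folds come from edgeR's quasi-likelihood fit to all 12 libraries, and a gene is called where the Benjamini-Hochberg adjusted p over 20183 tested genes is under 0.05. Of the 38 members, 33 passed the filter on low counts; HOXC12, HOXC13, HOXD1, HOXD12 and HOXD13 did not and have levels but no test. A member can pass the filter through a single day where it is high, so the counts below describe tested members and are not evidence in themselves. Members shared exon sequence with neighbours: 8 overlapped a gene of the same strand over 4.3% to 21.4% of their exon bases and 18 a gene of the opposite strand, and since it is not stated whether counting used strand, counts of those members are uncertain in part.

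HOXA lies at chr7:27100354-27200106 on the minus strand of GRCh38, HOXB at chr17:48528526-48729178 on the minus strand, HOXC at chr12:53938765-54056030 on the plus strand and HOXD at chr2:176092891-176190907 on the plus strand. The start-site regions of the members were compared over the 250 bases before the RefSeq start (assembly GRCh38.p14). RefSeq windows were matched for 20 members, with HOXC4 and HOXC5 sharing one window; HOXB1 was the one HOXB member matched. The following 5 windows hold no annotated exon and belong to tested members, and capitals mark the motifs that were searched.

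HOXA6 (chr7:27147775-27148024): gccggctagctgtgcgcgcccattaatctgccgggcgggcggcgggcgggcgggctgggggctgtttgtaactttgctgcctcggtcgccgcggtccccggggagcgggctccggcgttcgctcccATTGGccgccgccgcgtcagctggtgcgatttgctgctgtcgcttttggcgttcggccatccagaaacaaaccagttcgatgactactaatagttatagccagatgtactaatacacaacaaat

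HOXA9 (chr7:27165538-27165787): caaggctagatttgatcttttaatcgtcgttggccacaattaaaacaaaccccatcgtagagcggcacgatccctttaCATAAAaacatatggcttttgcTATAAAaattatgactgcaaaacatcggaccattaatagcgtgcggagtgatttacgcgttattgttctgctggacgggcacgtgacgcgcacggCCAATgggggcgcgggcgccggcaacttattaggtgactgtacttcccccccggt

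HOXB1 (chr17:48531012-48531261): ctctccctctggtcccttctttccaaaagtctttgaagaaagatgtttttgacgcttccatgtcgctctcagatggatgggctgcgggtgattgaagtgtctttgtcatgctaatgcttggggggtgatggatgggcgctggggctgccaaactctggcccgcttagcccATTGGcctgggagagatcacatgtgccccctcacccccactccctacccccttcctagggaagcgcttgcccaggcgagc

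HOXD3 (chr2:176157057-176157306): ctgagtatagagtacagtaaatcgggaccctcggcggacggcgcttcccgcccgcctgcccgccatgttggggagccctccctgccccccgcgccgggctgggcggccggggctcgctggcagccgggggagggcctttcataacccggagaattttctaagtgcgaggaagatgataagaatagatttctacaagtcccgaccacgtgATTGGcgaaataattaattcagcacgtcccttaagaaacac

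HOXD11 (chr2:176107030-176107279): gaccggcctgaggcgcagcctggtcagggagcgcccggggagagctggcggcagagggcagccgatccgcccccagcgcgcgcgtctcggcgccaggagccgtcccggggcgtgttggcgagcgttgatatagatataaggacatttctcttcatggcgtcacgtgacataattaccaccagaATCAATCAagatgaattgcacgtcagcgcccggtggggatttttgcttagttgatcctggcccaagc

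The CCAAT box (searched as CCAAT on both strands, so that ATTGG marks it on the other strand) stood in 16 of the 19 distinct HOX windows, or 84.2%, beside 33.1% of 27050 distinct promoter windows of the same length. In the windows printed above it is marked in HOXA6, HOXA9, HOXB1 and HOXD3, and it begins 124 bases before the start in HOXA6, 80 in HOXB1 and 41 in HOXD3. The HOXD11 window, shown for contrast, holds no CCAAT box. TATAAA, the TATA box, was found in 4 HOX windows (21.1%, beside 11.2% of all) and TTTATG, a site of the CDX factors that act on HOX clusters in the embryo, in 3 (15.8%, beside 10%). The HOXA9 window carries these last 2 together with a CCAAT box. TGATTNAT, a composite HOX-PBX site, was found in HOXA2 and HOXD11 (10.5%, beside 2.59%) and TGACAG, a binding site of MEIS and PKNOX proteins, in HOXA2 and HOXA4 (10.5%, beside 13.1%). Every motif was searched on both strands, and matches may overlap at their ends, since TATAAA read on the other strand begins like TTTATG. The HOX windows had a median ratio of observed to expected CpG of 0.888, against 0.556 over all windows, at a like GC content (59.2% against 57.6%); HOXB1 at 0.343 and HOXD4 at 0.287 were the lowest of the 19. These matches describe letters and were not tested as sites.

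Summed over the 38 genes, HOX expression was lowest at day 15 and highest at day 20. The summed level was 90 ± 3.2 CPM at day 10, 55.2 ± 0.427 CPM at day 15, 210 ± 4.06 CPM at day 20 and 143 ± 6.55 CPM at day 25. The libraries of the 4 days did not overlap: they lay between 87.8 and 93.7, 55 and 55.7, 206 and 214, and 135 and 147 CPM. At the level of single genes, 32 of the 33 tested members differed among the 4 days, where 90.5% of all tested genes did. The exception was HOXA7 (adjusted p = 0.1, edgeR), which had 5 to 36 counts over the libraries of a day. Of the 38 members, 10 stayed under 1 CPM on every day while 27 were counted in all 12 libraries. Of the tested members, 26 had their highest mean at day 20 and 7 at day 25, and 24 had their lowest at day 15, 8 at day 10 and HOXB9 at day 25. By cluster, day 20 was the highest for 9 of 10 HOXA, 9 of 10 HOXB and 7 of 7 HOXC genes, whereas 5 of 6 HOXD genes were highest at day 25. No share over all tested genes is given for these highest and lowest days, so they are not read as particular to HOX genes.

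**Figure D1:**
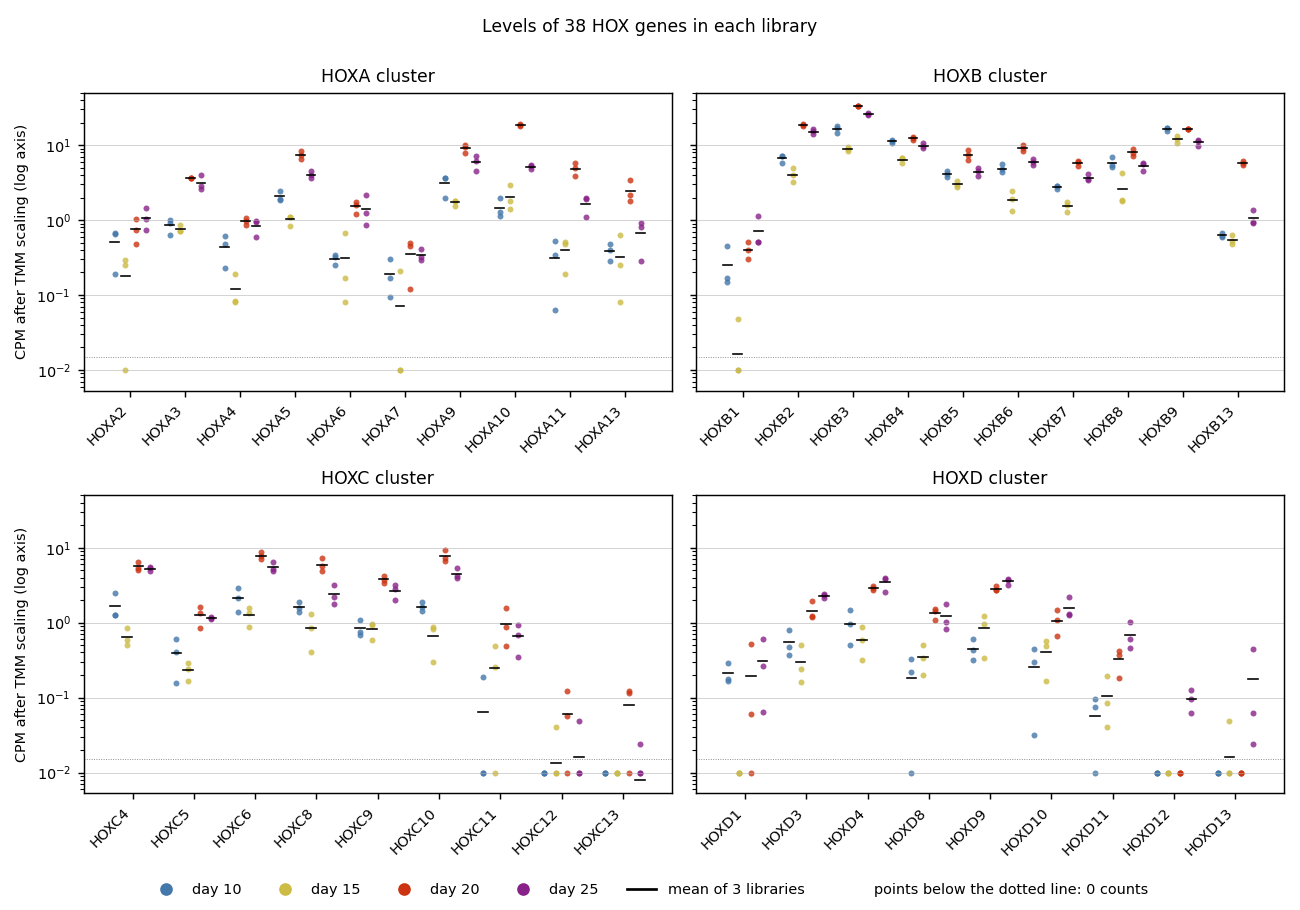
Level of each of the 38 HOX genes in each library, in CPM after TMM scaling on a log axis, with one panel per cluster, colours for the days and a bar at the mean of 3 libraries; points under the dotted line are libraries with 0 counts. Levels can be read within a gene across days: in HOXA, HOXB and HOXC most genes sit highest at day 20, and HOXB9 stays between 9.74 and 17 CPM in all 12 libraries.

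Divided by exon length so that genes can be compared, HOXB was the most abundant cluster on every day, with a smaller share of the total at days 20 and 25 than before. Summed CPM per kb of exon sequence for HOXB went from 23.3 at day 10 to 13.9, 38.6 and 26.8 at days 15, 20 and 25. HOXA went from 3.81 to 2.54, 18.1 and 9.46, HOXC from 3.51 to 2.03, 14.1 and 9.1, and HOXD from 1.36 to 1.28, 5.06 and 6.61 CPM per kb. The share of HOXB in the length-scaled HOX total was thus 72.9% ± 0.564 at day 10 and 70.4% ± 2.74 at day 15 but 50.9% ± 0.484 at day 20 and 51.6% ± 0.921 at day 25, with no overlap between the libraries of the earlier and the later pair of days. HOXA rose to 23.8% ± 0.251 at day 20 from 12.8% ± 2.88 at day 15, and HOXD reached 12.7% ± 1.13 at day 25 from 4.27% ± 1.01 at day 10. These shares are described without a test.

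**Figure D2:**
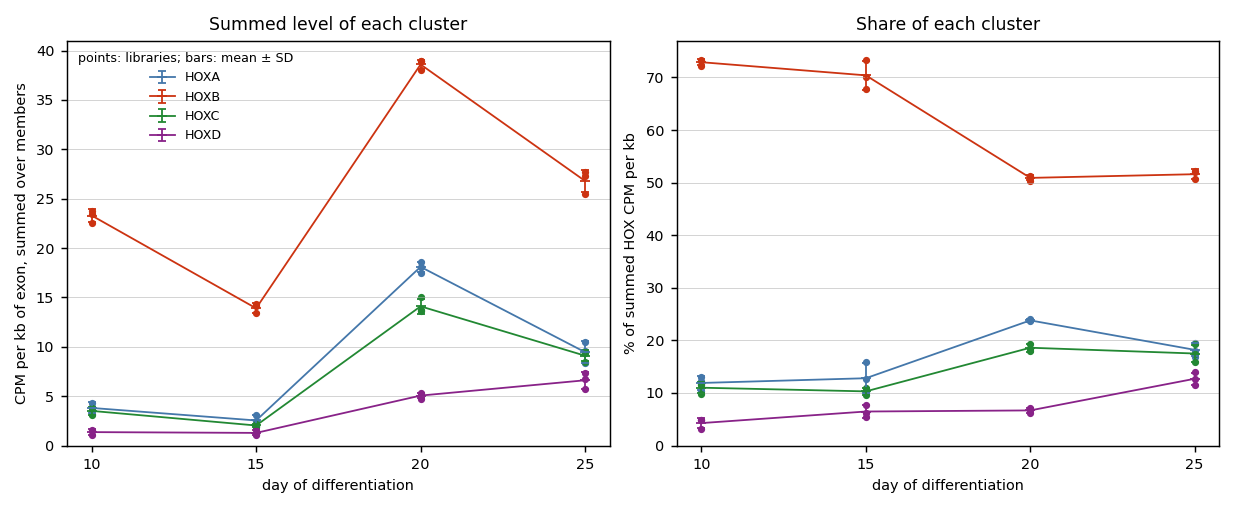
Length-scaled level of each HOX cluster by day (summed CPM per kb) and share of each cluster in the HOX total (percent), with points for libraries and bars for mean ± SD of 3. HOXB lies above the other clusters on all days while its share goes from 72.9% at day 10 to 51.6% at day 25, and HOXD alone among the 4 clusters has its highest mean at day 25.

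Ranked per kb, the posterior gene HOXB9 led at day 10 (6.36 ± 0.31 CPM per kb) and day 15 (4.65 ± 0.526), and the anterior gene HOXB2 led at day 20 (7.92 ± 0.278) and day 25 (6.48 ± 0.499). At day 10 the next places were held by HOXB4 (2.99 ± 0.152), HOXB2 (2.87 ± 0.363) and HOXB8 (2.85 ± 0.493), which did not differ beyond their spread. At day 20 HOXB9 was in place 2 (6.37 ± 0.0464) and HOXA10 in place 3 (5.03 ± 0.169), above HOXB3 (4.41 ± 0.0139) and HOXA5 (4.39 ± 0.563), of which the last 2 did not differ beyond their spread. HOXA10 held place 17 at day 10, 11 at day 15, 3 at day 20 and 17 again at day 25. These ranks depend on the exon lengths used, and the annotation behind the counts is not stated. HOXB3 has 7456 exon bases, beside 2336 in HOXB2 and 2581 in HOXB9. Without length scaling HOXB3 was above HOXB2 at day 20 (32.9 ± 0.103 against 18.5 ± 0.649 CPM) and day 25 (25.9 ± 0.893 against 15.1 ± 1.17 CPM). HOXB3 and HOXB9 were alike at day 10 (16.5 ± 1.63 and 16.4 ± 0.8 CPM), and HOXB9 was higher at day 15. By paralogue number, genes 1 to 3 made up 18.3% ± 0.466 of the length-scaled total at day 10, 16.5% ± 1.39 at day 15, 18.7% ± 0.672 at day 20 and 23.5% ± 1.04 at day 25. Genes 9 to 13 made up 30.5% ± 1.19, 38.9% ± 4.47, 35.2% ± 1.11 and 29.7% ± 1.09 on the same days. In a bulk sample, fewer cells of a type and less RNA per cell cannot be told apart.

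From day 10 to day 15, the first 5 days with DLL4, HOX genes fell or did not pass the test, with a single gene called higher. Of 33 tested members 17 were called lower, where 30.8% of all tested genes were, and 1 was called higher, where 42.4% of all were; with counts scaled by library size alone the background was 45.5% lower and 29.3% higher. The median log2 fold change of the tested members was -0.76, beside 0.2 over all tested genes. By cluster, 9 of 10 HOXB, 4 of 10 HOXA and 4 of 7 tested HOXC genes were called lower and none of the 6 tested HOXD genes. By paralogue number, 10 of 15 central genes (4 to 8) and 4 of 6 tested anterior genes (1 to 3) were called lower, but 3 of 12 tested posterior genes (9 to 13).

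Within HOXB, the neighbours HOXB2 to HOXB9 all declined. HOXB3, which acts in hindbrain patterning, measured 14.7, 16.9 and 17.9 CPM in the libraries of day 10 and 8.31, 9.38 and 8.96 CPM at day 15, with no overlap; it was 1.86-fold lower (adjusted p = 6.5e-11, edgeR's quasi-likelihood test). HOXB4, known for expanding blood stem cells when overexpressed, measured 10.6, 11.7 and 11.4 CPM at day 10 and 5.74, 6.77 and 6.67 CPM at day 15, 1.76-fold lower (adjusted p = 3.9e-07, edgeR). The largest decreases in the cluster above 1 CPM were those of HOXB6, from 4.87 ± 0.608 to 1.88 ± 0.553 CPM (2.58-fold; adjusted p = 1.3e-07, edgeR), and HOXB8, from 5.84 ± 1.01 to 2.62 ± 1.42 CPM (2.21-fold; adjusted p = 3e-05, edgeR). HOXB8, which holds back differentiation of myeloid progenitors when forced, varied among the day 15 libraries: 4.26 in the first against 1.84 and 1.77 CPM. HOXB2 (1.64-fold), HOXB7 (1.82-fold), HOXB9 (1.36-fold) and HOXB5 (1.36-fold) were also called lower. The HOXB5 call, at an adjusted p of 0.039, was lost under limma-voom (0.075), under a stricter filter (0.0563) and when any of 4 libraries was left out: day 10 replicates 2 (0.0622) and 3 (0.109) and day 15 replicates 2 (0.102) and 3 (0.0779). HOXB1, the most anterior HOXB gene, had 25 counts over the 3 libraries of day 10 and 1 count over those of day 15. HOXB13, at the far end of the cluster, was at 0.626 ± 0.0358 and 0.546 ± 0.0775 CPM and was not called.

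In HOXA and HOXC the same interval brought lower levels of HOXA5 (2.08 ± 0.349 to 1.02 ± 0.151 CPM; 2.04-fold, adjusted p = 0.0005, edgeR), HOXC4 (1.68 ± 0.706 to 0.643 ± 0.178 CPM; 2.56-fold) and HOXC10 (1.64 ± 0.228 to 0.667 ± 0.323 CPM; 2.48-fold). HOXA9, a driver of self-renewal in haematopoietic progenitors and in leukaemia, measured 3.68, 1.98 and 3.65 CPM at day 10 and 1.81, 1.55 and 1.81 CPM at day 15, with the lowest library of day 10 just above the highest of day 15. It was 1.77-fold lower (adjusted p = 0.0024, edgeR). The neighbouring HOXA10 was not called lower: its libraries measured 1.27, 1.13 and 1.96 CPM and then 1.77, 2.95 and 1.41 CPM, which overlap. HOXA10 was not called (log2 fold change 0.49, adjusted p = 0.062, edgeR); it was called higher under a stricter filter (0.53) and without day 10 replicate 3 (0.74) or day 15 replicate 3 (0.70), and its sign turned under library-size scaling (-0.04). HOXC6 (2.12 ± 0.739 to 1.27 ± 0.347 CPM) was called lower with overlapping libraries; its log2 fold change of -0.77 became -0.49 without day 10 replicate 2 and -0.56 without day 15 replicate 3, and in both cases the call was lost. HOXC8 (1.61 ± 0.239 to 0.85 ± 0.452 CPM) lost its call without day 15 replicate 3 (-0.59, from -0.94). HOXA2 and HOXA4 were called lower while under 1 CPM on both days. The HOXA4 call (log2 fold change -1.85) was lost without day 10 replicate 3 (-1.54), day 15 replicate 1 (-1.66) or day 15 replicate 3 (-1.63). The HOXA2 call (-1.51) was lost without any of 7 libraries (replicates 2 and 3 of day 10, 3 of day 15, 1 and 2 of day 20 and 1 and 2 of day 25), furthest without day 15 replicate 3 (-0.91).

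HOXD9 was the gene called higher between days 10 and 15. It measured 0.318, 0.427 and 0.608 CPM at day 10 and 0.97, 0.338 and 1.21 CPM at day 15, so that the second library of day 15 lay within the range of day 10. The rise of 1.9-fold (adjusted p = 0.032, edgeR) was below 1 CPM at day 15 and was lost under library-size scaling (log2 fold change 0.40, from 0.93), with no filter, under limma-voom and with the compared days fitted alone. It was also lost without day 10 replicates 1 (0.74) or 2 (0.89) or day 15 replicates 1 (0.83) or 3 (0.57).

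From day 15 to day 20, with DLL4 and the cytokines still in the medium, all but 1 of the tested HOX genes rose. All 33 tested members had positive log2 fold changes, and 32 were called higher, where 40.6% of all tested genes were; 0 were called lower, where 36% of all were, by edgeR (0 also at an unadjusted p under 0.05), by DESeq2 and by limma-voom. With library-size scaling the background was 58.1% higher and 22.4% lower. The median log2 fold change was 2.25 over the tested members and 0.1 over all genes. Among the called members 30 rose at least 2-fold, and the share of all genes that rose as far is not given. Cluster medians were 2.64 for HOXA, 1.9 for HOXB, 2.64 for HOXC and 1.84 for HOXD. With no filter on low counts, 33 of all 38 members were called higher, and the share of all genes in that setting is not given.

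By paralogue number the median log2 fold changes were alike, at 2.21 for tested genes 1 to 3, 2.28 for genes 4 to 8 and 2.29 for genes 9 to 13. Genes 9 to 13 held both the 4 largest folds among members at 1 CPM or more at day 20 and the smallest, that of HOXB9. HOXA10, known for myeloid and progenitor expansion and for uterine patterning, measured 18.8, 19.2 and 18 CPM at day 20, each library more than any at day 15, a 9.27-fold rise (adjusted p = 5.4e-19, edgeR). HOXA11, a limb and kidney patterning gene, measured 0.506, 0.193 and 0.482 CPM at day 15 and 4.99, 5.73 and 3.88 CPM at day 20, 12-fold higher (adjusted p = 1.2e-10, edgeR). HOXC10, which marks hindlimb and lower trunk, went from 0.295, 0.822 and 0.884 to 9.31, 7.22 and 6.72 CPM, 11.6-fold (adjusted p = 3.4e-15, edgeR). HOXB13, a posterior gene known in prostate and tail development, went from 0.633, 0.483 and 0.522 to 6.14, 5.36 and 5.77 CPM, 10.4-fold (adjusted p = 4.6e-13, edgeR). HOXA13 (7.94-fold, to 2.48 ± 0.876 CPM) rose with them. In each of these genes the libraries of the 2 days did not overlap. The ratio of HOXA10 to HOXA9 in CPM per kb was 0.395 ± 0.0993 at day 10, 0.997 ± 0.492 at day 15, 1.69 ± 0.156 at day 20 and 0.743 ± 0.198 at day 25 (mean of 3 library ratios, not tested).

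Among the other genes, HOXB3 reached 32.8, 32.9 and 33 CPM at day 20 from 8.88 ± 0.538 CPM (3.71-fold; adjusted p = 8.4e-22, edgeR), and HOXB2, a hindbrain gene, reached 18.5, 17.8 and 19.1 CPM from 4.04 ± 0.853 CPM (4.55-fold; adjusted p = 3.9e-18, edgeR). HOXA5, which is known in lung and haematopoietic cells, went from 1.1, 1.11 and 0.844 to 7.48, 6.53 and 8.46 CPM, 7.37-fold (adjusted p = 1.7e-14, edgeR), and HOXA9 from 1.72 ± 0.153 to 9.12 ± 1.1 CPM, 5.26-fold (adjusted p = 9.9e-13, edgeR). HOXC4 (8.69-fold), HOXC8 (7.15-fold), HOXC6 (6.23-fold), HOXC5 (5.44-fold), HOXC9 (4.52-fold), HOXA6 (5.11-fold) and HOXA3 (4.68-fold) followed. In HOXB, HOXB6 (4.86-fold), HOXB7 (3.76-fold), HOXB8 (3.04-fold) and HOXB5 (2.44-fold) rose by larger folds than HOXB4, which went from 6.39 ± 0.569 to 12.3 ± 0.497 CPM (1.92-fold; adjusted p = 1.6e-08, edgeR). HOXB9 changed least: 10.7, 11.9 and 13.4 CPM at day 15 and 16.4, 16.4 and 16.6 CPM at day 20, 1.37-fold (adjusted p = 0.00031, edgeR).

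HOXD genes rose from levels mostly under 1 CPM. HOXD4 reached 2.89 ± 0.163 CPM (4.84-fold; adjusted p = 3.6e-07, edgeR), HOXD9 reached 2.85 ± 0.168 CPM (3.32-fold; adjusted p = 9.1e-06, edgeR), HOXD3 reached 1.45 ± 0.449 CPM (4.75-fold) and HOXD8 reached 1.35 ± 0.228 CPM (3.84-fold). HOXD10 (2.61-fold, to 1.06 ± 0.4 CPM) was called, but not without day 15 replicate 1 or day 20 replicate 1, where its log2 fold change was 1.01 and 1.10 against 1.39. HOXD11, which shares 21.4% of its exon bases with HOXD10, was the tested member not called (0.106 ± 0.0788 to 0.324 ± 0.125 CPM; log2 fold change 1.63, adjusted p = 0.075, edgeR). Below 1 CPM, HOXA4, HOXA7, HOXB1, HOXA2 and HOXC11 were called higher; the HOXA7 call (log2 fold change 2.24) was lost without day 15 replicates 2 (1.74) or 3 (1.65) or day 20 replicates 1 (2.03) or 2 (1.95), and the HOXC11 call (1.92) without day 15 replicates 1 (1.92) or 2 (1.39) or day 20 replicate 3 (1.42). The untested HOXC12 and HOXC13 had 6 and 8 counts over the 3 libraries of day 20 and 0 to 2 over those of any other day, and HOXD1 had 21, 0, 20 and 32 counts over the libraries of days 10, 15, 20 and 25.

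**Figure D3:**
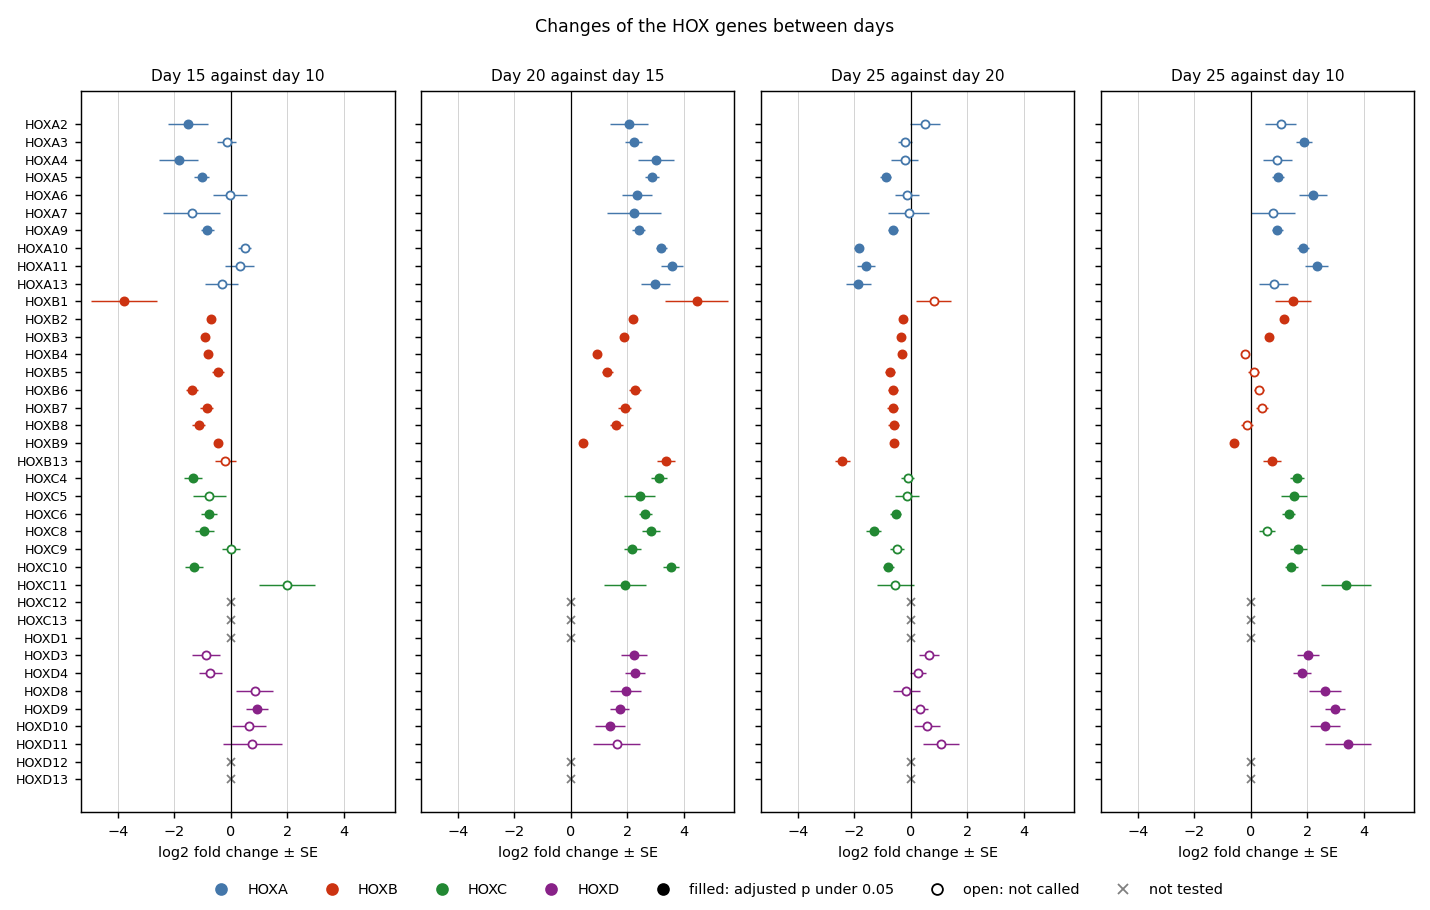
Log2 fold change ± SE of every tested HOX gene in the 4 comparisons from edgeR's fit, coloured by cluster, with filled points called at an adjusted p under 0.05, open points not called and crosses not tested. All 33 tested members lie to the right of 0 between days 15 and 20, and 17 called members lie to the left of 0 in each of the comparisons of days 15 and 10 and of days 25 and 20.

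Between days 20 and 25 HOXA, HOXB and HOXC genes were called lower in part, and no HOXD gene was called in either direction. Of 33 tested members 17 were called lower, where 25.1% of all tested genes were, and 0 were called higher by edgeR, where 24.5% of all were (0 also at an unadjusted p under 0.05). DESeq2 called 0 higher as well, and limma-voom called HOXD3 (log2 fold change 0.68, against 0.65 by edgeR at an adjusted p of 0.13). By library-size scaling the background was 36.9% lower and 16.9% higher. The median log2 fold change was -0.35 for the members and -0.03 for all genes. The calls covered 9 of 10 HOXB, 5 of 10 HOXA, 3 of 7 tested HOXC and 0 of 6 tested HOXD genes; HOXD8 fell by 0.15 on the log2 scale without a call, and the other 5 HOXD genes had positive values.

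Of the 5 members that fell at least 2-fold, 4 were posterior genes, as are 12 of the 33 tested. The share of all genes that fell as far is not given. HOXB13 measured 0.914, 0.94 and 1.38 CPM at day 25, below every library of day 20, a 5.36-fold decrease (adjusted p = 3.4e-10, edgeR). HOXA10 came down to 5.42, 5.26 and 4.83 CPM, 3.61-fold lower (adjusted p = 5.6e-13, edgeR), and HOXA13 (3.64-fold, to 0.674 ± 0.338 CPM) and HOXA11 (2.97-fold, to 1.65 ± 0.492 CPM) came down with it. HOXC8 fell 2.48-fold to 2.38 ± 0.727 CPM, HOXA5 1.85-fold to 4.05 ± 0.433 CPM and HOXC10 1.73-fold to 4.49 ± 0.807 CPM. Since each of these is high at day 20, a high day 20 value enters both the rise before it and the fall after it. Smaller called decreases were those of HOXB5 (1.67-fold), HOXB7 (1.56-fold), HOXB6 (1.54-fold), HOXB9 (1.52-fold) and HOXB3 (1.27-fold; 26.8, 25 and 26 CPM at day 25).

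Some of these calls rested on few libraries. HOXA9 went from 9.46, 10 and 7.89 CPM to 6.18, 4.51 and 7.07 CPM, 1.55-fold lower (adjusted p = 0.0051, edgeR), and lost its call without day 25 replicate 2 (log2 fold change -0.46, from -0.63). HOXB8 (1.51-fold lower, log2 fold change -0.60) lost its call without day 20 replicate 1 (-0.51) or day 25 replicate 2 (-0.48). HOXB4 (1.25-fold lower, -0.32) lost it without day 20 replicates 2 or 3 or day 25 replicates 1 or 3, at values down to -0.26, and HOXC6 (1.44-fold lower, -0.53) without replicates 2 or 3 of either day, at values down to -0.44. HOXB2 (1.22-fold lower, adjusted p = 0.038, edgeR) lost it under DESeq2 (0.0683), under its size factors (0.0622) and without any of the 3 libraries of day 20 or replicates 1 or 2 of day 25, at log2 fold changes from -0.32 to -0.23. HOXC9, from 3.77 ± 0.449 to 2.68 ± 0.635 CPM, was not called (adjusted p = 0.12, edgeR) but was called lower by edgeR with library-size scaling (0.0327) or with the compared days fitted alone (0.0416) and by limma-voom (0.0388). HOXC4, HOXC5, HOXA3 and HOXA6 had means at day 25 of 5.22, 1.16, 3.16 and 1.41 CPM and were not called.

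The HOXD genes, none of them called in this interval, had day 25 means mostly at or above those of day 20. HOXD3 measured 1.22, 1.18 and 1.97 CPM at day 20 and 2.33, 2.12 and 2.4 CPM at day 25, with no overlap, HOXD9 measured 3.04, 2.75 and 2.75 and then 3.81, 3.23 and 3.75 CPM, and HOXD4 measured 2.89, 2.72 and 3.05 and then 3.88, 2.53 and 3.94 CPM, which overlap. The differences missed the threshold (adjusted p = 0.13, 0.34 and 0.51, edgeR). The untested HOXD12 and HOXD13 had 0 counts in every library of day 20 and 10 and 17 counts over those of day 25; HOXD13 drew its counts mostly from a single library, at 0.063, 0.0241 and 0.448 CPM.

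Over the whole course, day 25 against day 10, most HOX genes ended above their starting level. Of 33 tested members 22 were called higher, where 38.6% of all tested genes were, and HOXB9 was called lower, where 36% were. The median log2 fold change was 1.34 beside 0.02 over all genes. All 6 tested HOXD genes, 6 of 7 tested HOXC, 6 of 10 HOXA and 4 of 10 HOXB genes were called higher, and the cluster medians were 2.62, 1.54, 1.02 and 0.35.

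HOXD9 went from 0.451 ± 0.146 to 3.6 ± 0.319 CPM, 7.96-fold (adjusted p = 1.4e-10, edgeR), the largest rise among members with 3 CPM or more at day 25, and HOXD8 (6.19-fold), HOXD10 (6.14-fold), HOXD3 (4.05-fold) and HOXD4 (3.5-fold) rose too. HOXA11 (5.05-fold), HOXA6 (4.64-fold), HOXA3 (3.72-fold), HOXA10 (3.61-fold; adjusted p = 5.9e-11, edgeR), HOXA5 (1.95-fold) and HOXA9 (1.92-fold; adjusted p = 7.6e-05, edgeR) were the HOXA genes called. In HOXC the called genes at 1 CPM or more were HOXC9 (3.22-fold), HOXC4 (3.14-fold), HOXC5 (2.91-fold), HOXC10 (2.71-fold) and HOXC6 (2.53-fold). In HOXB they were HOXB2 (2.27-fold; adjusted p = 3.5e-11, edgeR), HOXB3 (1.57-fold; adjusted p = 7.8e-09, edgeR) and HOXB13 (1.71-fold). The HOXB13 call (adjusted p = 0.026, edgeR) was lost under limma-voom (0.0771), with the compared days fitted alone (0.0825) and without day 10 replicates 2 (0.0639) or 3 (0.0546) or day 25 replicate 3 (0.142). HOXB1, called under 1 CPM at a log2 fold change of 1.49, was lost with no filter and without day 10 replicates 2 (1.21) or 3 (1.28) or day 25 replicate 1 (1.01). HOXB4, HOXB5, HOXB6, HOXB7 and HOXB8 were not called, with folds between 1.07 and 1.33 in either direction. HOXB9 measured 17, 15.5 and 16.8 CPM at day 10 and 11.7, 9.74 and 11.2 CPM at day 25, 1.51-fold lower (adjusted p = 3.6e-06, edgeR), with no overlap.

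Paralogues, the copies of a gene on different clusters, differed in level and course. Of paralogue 9, HOXB9 was highest per kb of exon on all days, and HOXB9 fell over the course while HOXA9, HOXC9 (0.84 ± 0.212 to 2.68 ± 0.635 CPM) and HOXD9 rose. Of paralogue 10, HOXA10 and HOXC10 peaked at day 20, whereas HOXD10 had its highest mean at day 25 (1.59 ± 0.525 CPM). Of paralogue 4, HOXB4 was the most abundant per kb on all days (2.61 ± 0.233 CPM per kb at day 25, beside 2.36 ± 0.543 for HOXD4, which did not differ beyond their spread). Of paralogue 13, HOXB13 and HOXA13 peaked at day 20 and HOXC13 and HOXD13 stayed at 0 to 17 counts a day. Successive comparisons share libraries, so their values stand side by side without a test of one against the next.

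The PBX and MEIS cofactors with which HOX proteins bind DNA followed no common course, and some of them ran opposite to the HOX sum. MEIS1, which cooperates with HOXA9 in leukaemia, measured 244 ± 9.94 CPM at day 10, 992 ± 5.69 at day 15, 38.9 ± 3.25 at day 20 and 17.1 ± 0.59 at day 25; it rose 4.06-fold (adjusted p = 6e-37, edgeR) and then fell 25.5-fold (4.7e-48). PBX2 went from 182 ± 10.6 to 453 ± 11.2, 127 ± 4.7 and 112 ± 3.5 CPM, and PBX4 from 7.17 ± 0.835 to 92.9 ± 7.98, 3.96 ± 1.14 and 2.15 ± 0.11 CPM. These 3 were highest at day 15, when the HOX sum was lowest. Cofactors called higher from day 15 to day 20 were PBX3 (11 ± 2.32 to 19.8 ± 0.857 CPM), MEIS2 (34 ± 0.772 to 62.5 ± 2.41), MEIS3 (8.15 ± 0.85 to 17.9 ± 1.92), PKNOX1 (11.1 ± 0.441 to 20.9 ± 2.27) and PKNOX2 (1.36 ± 0.28 to 2.45 ± 0.338). Of the 9 listed cofactors 5 were called higher and 4 lower in that interval, where 40.6% and 36% of all tested genes were. From day 10 to day 15, 4 were called higher and 2 lower, where 42.4% and 30.8% of all were.

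Of 20 listed non-coding RNAs from within the clusters, 14 were tested. From day 10 to day 15, 1 was called higher, 4 lower and 9 in neither direction, where 42.4% of all tested genes were called higher and 30.8% lower. From day 15 to day 20, 10 were called higher and 0 lower, where 40.6% and 36% of all were. The numbers higher and lower were 1 and 2 from day 20 to 25 (24.5% and 25.1% of all). Over the course they were 6 and 1 (38.6% and 36% of all). HOXB-AS3, which runs antisense to HOXB5 and HOXB6, went from 4.81 ± 0.919 CPM at day 10 to 1.07 ± 0.465, 6.9 ± 0.608 and 3.49 ± 0.28 CPM. HOXA11-AS, antisense to HOXA11 and sharing sequence with 31.1% of its exon bases, rose 12.1-fold to 2.35 ± 0.452 CPM at day 20 (adjusted p = 4.5e-07, edgeR), and reads of the pair cannot be told apart without strand. HOTAIRM1, at the anterior end of HOXA and known in myeloid differentiation, went from 1.18 ± 0.226 to 0.524 ± 0.129, 2.66 ± 0.418 and 3.73 ± 0.455 CPM. The HOXD transcript HAGLR rose from 0.133 ± 0.0568 at day 15 to 1.04 ± 0.266 and 1.53 ± 0.539 CPM, and HOXA-AS2, HOXB-AS1, HOXB-AS2 and HOXC-AS2 reached 1.15 to 1.59 CPM at day 20. HOTAIR, transcribed from HOXC, stayed under 1 CPM.

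Genes beside the clusters were called in both directions in every comparison. Of 18 listed flanking genes 16 were tested. The numbers called higher and lower were 8 and 6 from day 10 to 15 (42.4% and 30.8% of all tested genes). They were 9 and 5 from day 15 to 20 (40.6% and 36% of all) and 5 and 6 from day 20 to 25 (24.5% and 25.1% of all). Over the course they were 7 and 4 (38.6% and 36% of all). TTLL6, which flanks HOXB beside HOXB13, had levels like those of HOXB13: 0.831 ± 0.177, 0.627 ± 0.386, 5.38 ± 0.304 and 0.984 ± 0.556 CPM, with an 8.58-fold rise to day 20 and a 5.32-fold fall after it (adjusted p = 5.3e-10 and 3.6e-08, edgeR). By contrast, the HOXA neighbour SKAP2 went from 60 ± 2.32 to 148 ± 2.8, 72.1 ± 2.42 and 128 ± 2.03 CPM. The HOXC neighbour CALCOCO1 went from 91.6 ± 4.33 to 732 ± 25, 83.2 ± 3.15 and 80.9 ± 1.08 CPM. Like TTLL6 and the HOX sum, MTX2, CBX1, HIBADH, LNPK, ATP5MC2 and CBX5 had their lowest means at day 15, and the other flanking genes named here did not. The HOXD neighbour MTX2 went from 17.8 ± 1.52 to 8.92 ± 1, 19.6 ± 0.582 and 19.4 ± 1.25 CPM. CBX1, with its highest mean at day 20, went from 82.8 ± 2.38 to 40.9 ± 3.35, 88.4 ± 5.21 and 65.7 ± 2.06 CPM. SNX10, on the HOXA side, rose throughout, from 1.79 ± 0.734 to 83.3 ± 6.44 CPM, and CBX5, on the HOXC side, fell 2.98-fold over the course, from 583 ± 19.9 to 195 ± 4.14 CPM. HIBADH, TAX1BP1, SKAP1, CALCOCO2, SNX11, CBX1, SMUG1, ATP5MC2, LNPK and ATF2 lay between 1.05 and 191 CPM on all days.

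Polycomb and trithorax genes, which regulate the clusters, were called in both directions. All 27 listed Polycomb genes were tested, and 9 were called higher and 18 lower over the course, where 38.6% of all tested genes were called higher and 36% lower; from day 15 to 20 the numbers were 9 and 15, where the shares were 40.6% and 36%. EZH2, the catalytic subunit of the repressive complex that marks histone H3, went from 109 ± 5.22 to 41.7 ± 4.63, 48.6 ± 2.1 and 29.4 ± 1.74 CPM, while CBX7 rose 3.21-fold and PHC2 3.18-fold over the course. Of 17 trithorax, MLL and DOT1L genes, 1 was called higher and 14 lower over the course and 4 and 11 from day 15 to day 20. MLLT3, a partner of DOT1L that maintains blood stem cells, went from 30.8 ± 1.72 to 61.4 ± 2.24, 9.57 ± 1.15 and 8.13 ± 0.545 CPM, and PSIP1 (3.19-fold) and ASH2L (2.28-fold) fell over the course.

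Genes of the CDX and retinoic acid pathways, which switch on HOX clusters in the embryo, were called in both directions in every comparison. Of 21 listed 18 were tested; 7 rose and 5 fell from day 10 to 15 (42.4% and 30.8% of all tested genes), 12 and 3 from day 15 to 20 (40.6% and 36% of all), 7 and 4 from day 20 to 25 (24.5% and 25.1% of all), and 13 and 2 over the course (38.6% and 36% of all). ALDH1A2, which makes retinoic acid, measured 2.84 ± 0.446, 36.4 ± 1.76, 43.7 ± 1.07 and 104 ± 3.05 CPM and so was already up at day 15, when the HOX sum was lowest. The retinoic acid binding proteins CRABP1 (8.5-fold, to 16 ± 0.635 CPM) and CRABP2 (5.8-fold, to 104 ± 6.31 CPM) rose over the course. CDX2 shared the dip of the HOX sum: it measured 2.42 ± 0.33 CPM at day 10, 0.324 ± 0.147 at day 15, 2.17 ± 0.333 at day 20 and 1.54 ± 0.331 at day 25 (7.24-fold lower and then 6.51-fold higher; adjusted p = 1.1e-08 and 4.1e-08, edgeR). CDX1 and CDX4 stayed at or near 0, with at most 0.0597 CPM on a day.

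Marker genes of other cell types also changed between the days. For the counts below, 40.6% of all tested genes were called higher and 36% lower from day 15 to day 20. The shares were 24.5% and 25.1% from day 20 to day 25, and 38.6% and 36% over the course. The 16 stromal markers summed to 1330 to 1360 CPM in the libraries of day 10, 1920 to 1990 at day 15, 7560 to 7720 at day 20 and 5320 to 5420 at day 25; 12 were called higher and 2 lower from day 15 to day 20, 5 were called higher, 7 lower and 4 in neither direction from day 20 to day 25, and all 16 were higher at day 25 than at day 10. COL3A1, a fibrillar collagen, went from 545 ± 11.2 to 658 ± 10.7, 4100 ± 55.2 and 2220 ± 44 CPM, and DCN from 22 ± 2.1 to 26.9 ± 1.85, 381 ± 7.61 and 154 ± 6.67 CPM. The 13 epithelial and hepatic markers summed to 193, 250, 1900 and 573 CPM, with 12 called higher and 1 lower from day 15 to day 20 and 10 called lower and 2 higher after it. The 10 myeloid markers summed to 536, 4910, 17600 and 10100 CPM. MPO, the granule enzyme myeloperoxidase, measured 11900 ± 46.9 CPM at day 20, most of that day's sum, and 4330 ± 42 CPM at day 25. Single myeloid markers differed from the sum: 5 were called higher and 3 lower from day 20 to day 25. The summed levels of these 3 lists were higher at day 15 than at day 10, unlike the HOX sum, but single markers differed. In that interval 12 stromal markers were called higher and 3 lower, where 42.4% and 30.8% of all tested genes were. Of the epithelial and hepatic markers 6 were called higher and 4 lower, and all 10 myeloid markers were called higher.

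The neural list of 11 genes summed to 7.54, 32.3, 102 and 135 CPM; STMN2, a neuronal microtubule regulator, measured 0.11 ± 0.102 CPM at day 10, 53.3 ± 1.02 at day 20 and 27.2 ± 0.641 at day 25, whereas SOX1 and PAX6 stayed under 0.2 CPM. The 7 megakaryocyte markers (4590, 21800, 353 and 73.2 CPM), the 8 erythroid markers (429, 567, 38.7 and 8.95), the 11 endothelial markers (1570, 3660, 458 and 353) and the 13 stem and progenitor markers (2340, 3460, 1340 and 1490) had their largest sums at day 15, when the HOX sum was lowest. From day 10 to day 15, 42.4% of all tested genes were called higher and 30.8% lower. Of these lists all 7 megakaryocyte markers were called higher in that interval, but the others were not uniform. There, 2 erythroid markers were called higher and 5 lower, 3 endothelial markers higher and 7 lower, and 5 stem and progenitor markers higher and 6 lower. TAL1, a transcription factor of blood progenitors that other blood lineages share, went from 741 ± 9.64 to 2380 ± 16 CPM in that interval, and CD34 from 20.6 to 5.47 CPM. The 12 T-lineage markers summed to 25.6, 30.9, 42 and 21.5 CPM. Of 9 tested, 6 were called higher and 2 lower at day 25 than at day 10, where 38.6% and 36% of all tested genes were. The part of these cell types in the HOX changes was not tested.

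**Figure D4:**
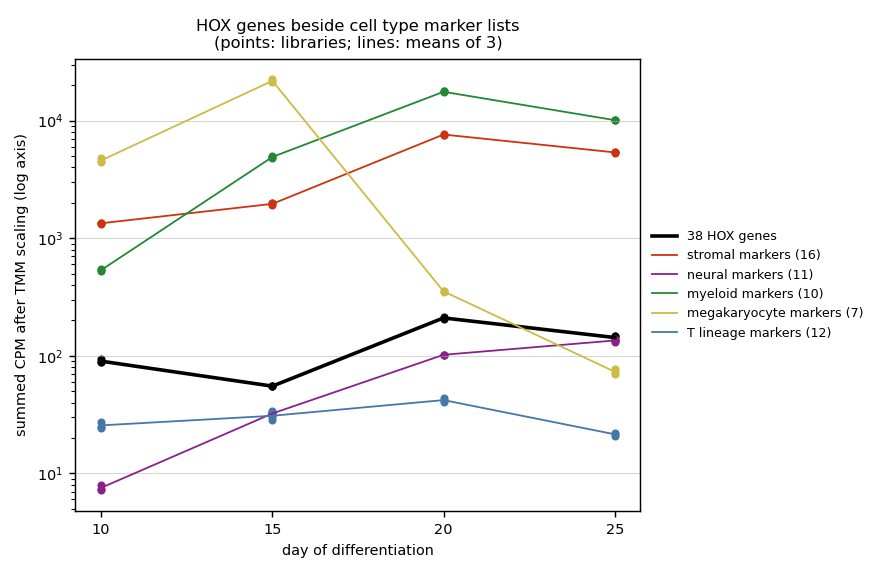
Summed level of the 38 HOX genes and of the stromal, neural, myeloid, megakaryocyte and T lineage marker lists by day. Levels are in CPM after TMM scaling on a log axis, with points for libraries and lines through the means of 3. The HOX line dips to 55.2 CPM at day 15 and peaks at 210 CPM at day 20. The stromal, myeloid and T lineage lines peak at day 20, the megakaryocyte line at day 15 and the neural line at day 25.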

How the data were processed

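Bulk RNA was sequenced from 12 libraries, 3 at each of days 10, 15, 20 and 25. Per the labels' protocols, libraries were made by LM-Seq from total RNA and read as single reads on a NovaSeq sequencer. The authors deposited raw counts per gene and library, not normalised, on GRCh38 per the submitters' processing notes. For the aligner, counter, annotation and use of strand: not given in the sources used here. More genes stood at 2 counts than at 1 in 12 of 12 libraries, so counts may not be separate fragments.

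The 38 members were matched by Ensembl ID, and 0 per-sample columns were left unused. Counts were fitted in R 4.3.3 with edgeR 4.0.16: filterByExpr (minimum count 10), TMM factors from 0.753 to 1.172, and one robust quasi-likelihood fit without covariates over all 12 libraries (common biological coefficient of variation 6.03%). The 4 comparisons and a joint F test were adjusted by Benjamini-Hochberg over 20183 genes, with calls under 0.05. The SE of a log2 fold change is its size over the square root of F. The fit was tested on simulated data. CPM per kb uses the union of exons in GENCODE release 29. The floor was 3 counts, 0.0723 to 0.145 CPM in a library, and covers counting error only. Replicate pairs of a day differed beyond counting noise (chi-square per degree of freedom 3.53 to 5.26), so each library counted once.

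Folds and tests are given for members called in a comparison and at 1 CPM or more on its higher day. From each pathway list the 3 genes with the largest change between days 10 and 25, at 10 CPM or more, were named, and from the cofactor, non-coding and flanking lists those at 1 CPM or more. CDX1, CDX2, CDX4, HOTAIR, marker genes and members under 1 CPM were named after their values were seen. A few list members are not reported here. The members and lists were chosen with earlier results of these data known.

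Results were recomputed with library-size scaling, with DESeq2 1.42.0 and with its size factors in edgeR, with limma-voom (limma 3.58.1), without a filter, with a stricter filter (10 counts and 1 CPM in 3 libraries), with a replicate block, on the compared days alone and without each library in turn. Figures were drawn with matplotlib 3.10.9 under Python 3.11.15, and tables were made with pandas 2.3.3 and numpy 2.4.6.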

Additional observations from a re-analysis of the deposited data

How the results depend on the processing

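Counts of called HOX genes kept within 1.5 times their values in 8 settings and in 12 fits that each left out a library, except where the count was 0 or 1. The count called higher at day 15 against day 10, 1 as reported, was 0 under library-size scaling, with no filter, under limma-voom and with the compared days alone, 2 under the stricter filter, and 0 to 2 when a library was left out. The count called higher at day 25 against day 20, 0 as reported, was 1 with no filter, under limma-voom and with the compared days alone. The count called lower at day 25 against day 10, 1 as reported, was 2 under library-size scaling. With a library left out, the other counts were 13 to 20 lower at day 15, 31 to 33 higher at day 20, 13 to 17 lower at day 25 against day 20 and 20 to 24 higher at day 25 against day 10. The cause of these shifts was not tested.

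Of 109 gene-level results, 16 calls were lost somewhere, 11 of them when a library was left out and under no other setting. The sign turned in 6, none of them called: HOXA10 at day 15 under library-size scaling (log2 fold change -0.042), HOXB8 at day 25 against day 10 without day 10 replicate 1 (range -0.23 to 0.009 over the left-out libraries), and, at day 25 against day 20, HOXA6 without day 25 replicate 1 (-0.545 to 0.138), HOXC4 without day 20 replicate 2 (-0.182 to 0.001), HOXC5 without day 20 replicate 3 (-0.361 to 0.081) and HOXD8 without day 25 replicate 3 (-0.534 to 0.051).

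Library-size scaling moved the median log2 fold change of all genes from 0.2 to -0.32 at day 15 and from 0.1 to 0.73 at day 20, while the members' median relative to it stayed at -0.97 (-0.96 as reported) and 2.13 (2.15). Same-numbered replicates did not deviate together (correlations from -0.016 to 0.016), so no pairing by the labels' numbers was seen. Deviations that are technical would hide a pairing, so it is not excluded. With a replicate block the counts were 1 higher and 17 lower, 32 and 0, 0 and 17, and 22 and 1, and 32 among the 4 days, as reported without it. Low counts limit the members under 1 CPM, where 3 counts in a library amount to 0.0723 to 0.145 CPM.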
